A study of Mus musculus with 4 samples.

Results

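Venous and venular endothelial cells were examined here through 7 genes, Vwf, Slc38a5, Nr2f2, Ackr1, Ephb4, Lcn2 and Lrg1, of the 32285 genes counted. All 7 symbols matched exactly 1 gene each, and 6 of them reached the 20 unique molecular identifiers (UMIs, the tags that count single RNA molecules) per comparison needed for a ratio. Ackr1 did not. The genes were chosen by name, and 2 things were asked of each: its UMIs per endothelial cell in every library, and whether a difference between libraries lay in the number of cells with the gene or in the level within them.

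Single brain cells of C57BL/6N mice, males 10 months old, were sequenced in 4 libraries. Mice had sham surgery with an isotype control antibody, stroke surgery (dMCAO, in which a distal branch of the middle cerebral artery is closed) with the isotype control antibody, stroke with an anti-VCAM1 antibody, or stroke with an anti-VLA4 antibody, each given for 10 weeks. VCAM1 is an adhesion molecule on activated endothelium, and VLA4 is the leukocyte integrin that binds it. The tissue taken was the core of the infarct and the cortex within about 2 mm of the lesion, stained for CD31, an endothelial surface protein, and CD45, a leukocyte surface protein, and each library pooled 4 to 5 mice. With 1 library per group there was no replicate and no test: intervals are exact 95% intervals that cover counting error only, and no p-value was computed.

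Blood vessels of the brain run from arteries through capillaries into venules and veins, and the endothelial cells along this path carry graded gene programs. Veins and the venules just after the capillaries are where leukocytes usually leave the blood, and their endothelium responds strongly to inflammatory signals. Of the genes examined, Nr2f2 (COUP-TFII) is a transcription factor that maintains venous identity, and Ephb4 is the receptor on venous cells that binds ephrin-B2 of arteries. Vwf encodes von Willebrand factor, stored in endothelial granules and used to capture platelets, and Slc38a5 is a glutamine transporter of capillary and venous brain endothelium. Ackr1 is a venular chemokine receptor that does not signal through G proteins. Lcn2 (lipocalin-2, an iron-siderophore binding protein) and Lrg1 (a secreted leucine-rich glycoprotein) are acute-phase genes that inflamed venules switch on and that neutrophils also carry.

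On GRCm38 (GENCODE M21), Vwf spans chromosome 6 from 125546774 to 125686679 on the forward strand, a span of 139906 bases. Slc38a5 lies on X from 8271133 to 8280179 and Ephb4 on chromosome 5 from 137350109 to 137378669, both forward. On the reverse strand are Nr2f2 (chromosome 7, 70351944 to 70366735), Ackr1 (chromosome 1, 173331886 to 173333750), Lcn2 (chromosome 2, 32384633 to 32388252) and Lrg1 (chromosome 17, 56119678 to 56122001). Ackr1 overlaps Cadm3 on its own strand, so its few UMIs are uncertain. Nr2f2 and Ephb4 overlap genes of the opposite strand.

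The libraries held 1516, 2832, 4662 and 6209 cells after filtering, in the order sham isotype, stroke isotype, stroke anti-VCAM1 and stroke anti-VLA4, which is kept below. Cells named endothelial-like from their clusters numbered 528, 628, 2395 and 3147, with medians of 4009.5, 3915, 4215 and 4562 UMIs. All 12 endothelial markers had UMIs there, and their summed level was between 22633 and 23889 CPM (UMIs of the genes in every 1000000 UMIs of these cells). The endothelial-like pools were not alike in other respects. Cells in a sub-cluster low in the nuclear RNA Malat1 numbered 25, 76, 698 and 941, cells in a sub-cluster with pericyte markers numbered 0, 5, 127 and 209, and the summed level of the 8 pericyte markers was 127, 180.1, 445 and 511 CPM. Red cell markers summed to 276, 2580.3, 1863 and 1892 CPM and microglia markers to 72.1, 291, 119 and 111 CPM, both highest in stroke isotype. The sham and stroke isotype libraries shared 59 cell barcodes, 55 of them deeper in the sham library, while only 9 and 5 endothelial-like cells of these 2 libraries had a barcode found elsewhere. The part of these pool differences in the results below was not tested beyond the values given beside each result.

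**Figure D1:**
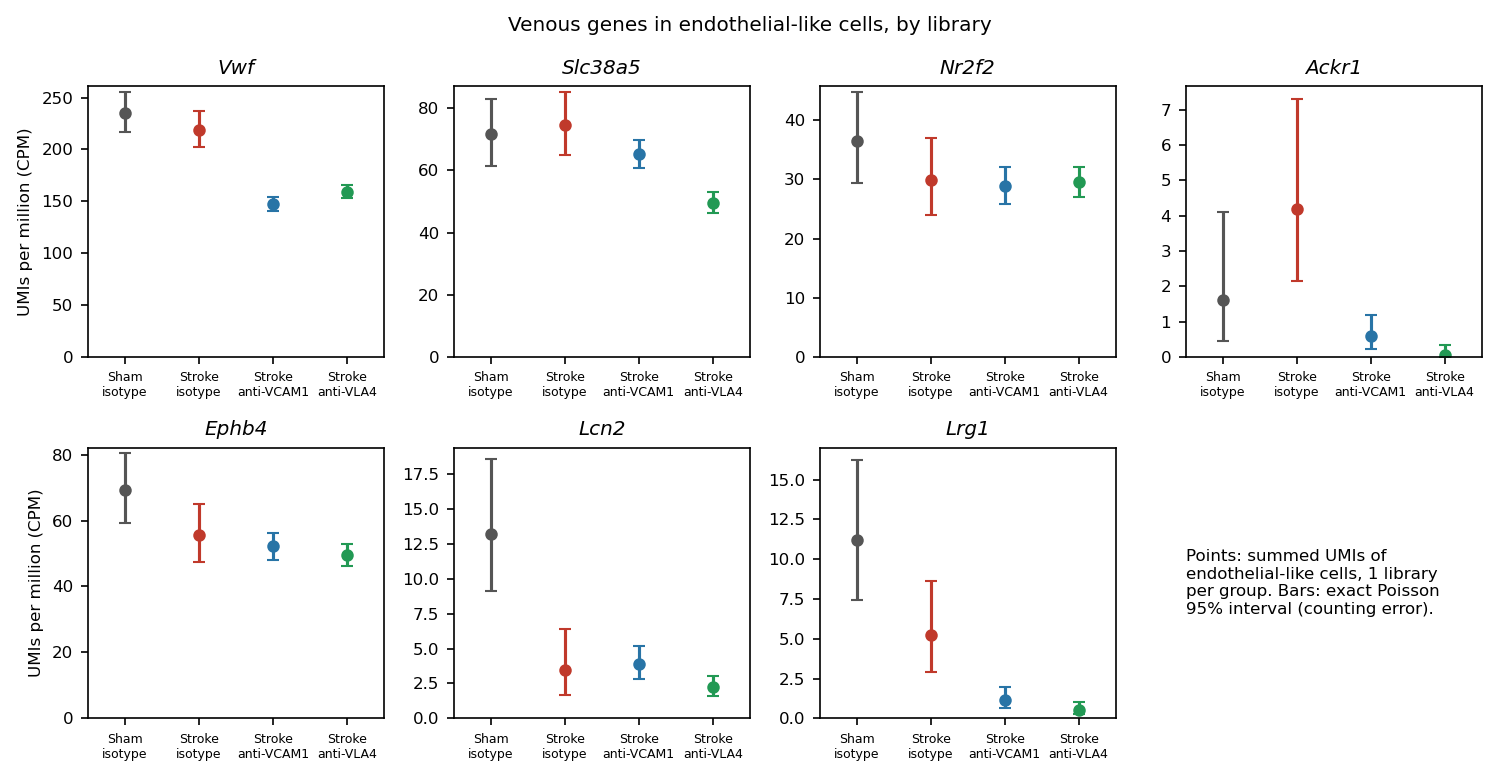
Level in CPM in all endothelial-like cells of each library for the 7 genes, on linear axes from 0 that differ between panels. Points are single libraries and bars are exact Poisson 95% intervals. Vwf is at 219 to 236 CPM in both isotype libraries and at 148 to 159 CPM in both antibody libraries, and Lrg1 is highest in the sham library.

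Among the more often detected genes, Vwf was at 236 CPM (217 to 255) in sham isotype, 219 (202 to 237) in stroke isotype, 148 (141 to 155) in anti-VCAM1 and 159 (153 to 165) in anti-VLA4 endothelial-like cells, from 588, 629, 1786 and 2717 UMIs. The 2 antibody libraries were both below the 2 isotype libraries, and no interval of one pair reached the other pair. Per 100 endothelial-like cells this was 111, 100.2, 74.6 and 86.3 Vwf UMIs.

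Slc38a5 stood at 71.7 CPM (61.6 to 83.0), 74.6 (64.9 to 85.2), 65.2 (60.7 to 69.9) and 49.6 (46.4 to 53.1). Only the anti-VLA4 library lay below the intervals of all the others, whose intervals overlapped one another.

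Ephb4 was at 69.3 CPM (59.4 to 80.4), 55.7 (47.4 to 65.1), 52.1 (48.1 to 56.4) and 49.5 (46.2 to 52.9). The sham library was the highest, and the 3 stroke libraries overlapped. Nr2f2 was at 36.5 CPM (29.4 to 44.8), 29.96 (24.0 to 37.0), 28.8 (25.9 to 32.0) and 29.5 (27.0 to 32.2), with all 4 intervals overlapping.

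The inducible genes were rarer. Lcn2 had 33, 10, 47 and 38 UMIs, or 13.2 CPM (9.10 to 18.6), 3.48 (1.67 to 6.41), 3.88 (2.85 to 5.16) and 2.23 (1.58 to 3.06), and the sham library stood above the 3 stroke libraries. Lrg1 had 28, 15, 14 and 9 UMIs, or 11.2 CPM (7.45 to 16.2), 5.23 (2.93 to 8.62), 1.16 (0.632 to 1.94) and 0.527 (0.241 to 1.00), so that both antibody libraries lay below both isotype libraries. Ackr1 had 4, 12, 7 and 1 UMIs in 3, 4, 3 and 1 cells, and 9 of the 12 in stroke isotype came from 1 cell.

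The stroke comparison, stroke isotype over sham isotype, asks how these genes differed after stroke under control antibody. Lcn2 was 3.79 times lower (log2 ratio −1.92, −3.11 to −0.87) and Lrg1 2.15 times lower (−1.10, −2.11 to −0.15), and none of the others was past 1.5 times in either direction. Those are 2 of the 6 measured genes past 1.5 times lower and 0 past 1.5 times higher, where 4.48% and 4.91% of the 10644 genes measured in endothelial-like cells were. Lcn2 was found in 10 sham and 9 stroke isotype cells, and Lrg1 in 9 and 7. In sham 1 cell held 11 of the 33 Lcn2 UMIs, and in stroke isotype 1 cell held 5 of the 15 Lrg1 UMIs, which the intervals do not cover. Without the thinning of cells to equal depth described below, the share of cells with Lcn2 differed by −0.40 and its UMIs per positive cell by −1.57. For Lrg1 these were −0.61 and −0.54. After thinning the order for Lcn2 reversed, to −1.44 and −0.10, and Lrg1 was at −1.22 and −0.32. Only 7 sham and 3 stroke isotype thinned cells held Lcn2, and 6 and 3 held Lrg1. The split between cell number and level was therefore not decided for these 2 genes. Vwf differed by a log2 ratio of −0.10 (−0.27 to 0.06), Slc38a5 by 0.056 (−0.24 to 0.35), Nr2f2 by −0.28 (−0.73 to 0.16) and Ephb4 by −0.31 (−0.63 to 0.004), all within counting error. After adding 1 CPM to each level, the median over the 6 genes was −0.29, beside −0.021 for all genes, and Lcn2 and Lrg1 were at −1.67 and −0.97. Without the barcodes found in more than 1 library, these 2 were at −1.73 and −1.04. Red cell and microglia markers, at the levels above, also differed between these 2 libraries, and their part in the Lcn2 and Lrg1 values was not tested.

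Under anti-VCAM1, set over stroke isotype, Vwf was 1.49 times lower (log2 ratio −0.57, −0.70 to −0.44), which falls just short of the 1.5 times used to call a difference. From 15 and 14 UMIs, Lrg1 was 4.52 times lower (−2.18, −3.34 to −1.02), or 2.89 times with 1 CPM added, and was the only 1 of 6 measured genes past the fold, with 0 higher. Of 11949 genes, 8.69% were past 1.5 times lower and 2.87% higher in this comparison. Slc38a5 (−0.19, −0.41 to 0.03), Ephb4 (−0.10, −0.35 to 0.16), Nr2f2 (−0.056, −0.40 to 0.30) and Lcn2 (0.16, −0.85 to 1.31) had intervals that included 0. The median of the 6 was −0.14 with 1 CPM added, against −0.077 for all genes. With 10 CPM added, Lrg1 was at −0.45 and no longer past the fold.

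Under anti-VLA4, also set over stroke isotype, Lrg1, from 15 and 9 UMIs, was 9.91 times lower (−3.31, −4.68 to −2.02), Slc38a5 1.502 times lower (−0.59, −0.80 to −0.36) and Vwf 1.38 times lower (−0.46, −0.59 to −0.33). Slc38a5 stood at the fold itself: with 1 CPM added to each level its ratio was 1.49 times, so Lrg1 alone, 1 of 6, was called lower and 0 higher, where 9.72% and 3.74% of 12365 genes were. With 1 CPM added Lrg1 was 4.08 times lower (−2.03), and with 10 CPM added it was at −0.53, no longer past the fold. Lcn2 (−0.65, −1.68 to 0.53), Ephb4 (−0.17, −0.42 to 0.08) and Nr2f2 (−0.023, −0.36 to 0.32) had intervals that included 0. The median of the 6 was −0.47, against −0.081 for all genes. Both antibody comparisons use the same stroke isotype library, so their likeness is not independent.

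Set directly against each other, the anti-VLA4 library had less Slc38a5 than the anti-VCAM1 library (1.31 times, −0.39, −0.54 to −0.25) and slightly more Vwf (1.08 times, 0.11, 0.023 to 0.20). Lcn2 was called lower (1.74 times, −0.80, −1.46 to −0.15), 1 of 6 genes where 0.466% of 12875 were, and 0 of 6 were higher, where 1.1% were. That call rested on 1 cell with 24 Lcn2 UMIs in the anti-VCAM1 library: without the cell highest in the gene in each library, the ratio with 1 CPM added moved from −0.60 to −0.042.

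The Vwf ratios under the antibodies were closer together with stroke isotype once gene length was allowed for. Long genes were lower relative to short ones in the antibody libraries, which also held more cells low in Malat1, and Vwf is the longest of the 7 by its span. After the trend of the ratio with gene span was removed, Vwf was at −0.28 under anti-VCAM1 and −0.15 under anti-VLA4, from −0.57 and −0.46. A cut of 1% Malat1 was also set on each cell, apart from the sub-cluster counted earlier. It marked 25.4%, 26.4%, 37.1% and 38.8% of endothelial-like cells as low in Malat1. With those cells left out, Vwf was at −0.50 and −0.35. Slc38a5, a short gene, moved the other way under anti-VLA4, from −0.58 to −0.76 with the span trend removed and to −0.82 without cells low in Malat1. The part of gene span and of cells low in Malat1 in the Vwf and Slc38a5 differences was not tested.

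To separate cell number from level, each endothelial-like cell was thinned to 1000 UMIs, which left out 4, 17, 30 and 37 shallower cells. Vwf was then found in 21.0% (17.6 to 24.7) of sham isotype cells, 18.2% (15.2 to 21.5) of stroke isotype, 12.4% of anti-VCAM1 and 14.2% of anti-VLA4 cells, and cells with Vwf held 1.37, 1.36, 1.22 and 1.21 UMIs each. Unthinned, at the depths above, the shares were 43.4%, 43.8%, 37.6% and 41.2%, with 2.57, 2.29, 1.98 and 2.10 UMIs per positive cell. Microglia-like cells, which should lack Vwf, had it in 0.854% to 2.02% of cells unthinned, at median depths of 5197 to 7342 UMIs, and in at most 0.290% once thinned.

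After thinning, the share of cells with a Vwf UMI differed more than the UMIs within them. Under anti-VCAM1 the thinned share differed by a log2 ratio of −0.55 (−0.87 to −0.22) and the UMIs per positive cell by −0.16. Under anti-VLA4 the figures were −0.36 (−0.66 to −0.044) and −0.17. Without thinning this order did not hold: the share and the UMIs per positive cell differed by −0.22 and −0.21 under anti-VCAM1 and by −0.090 and −0.12 under anti-VLA4. A cell with little Vwf can fall from 1 UMI to none, so this split does not separate absent from weak expression. Positive thinned cells of Slc38a5, Nr2f2 and Ephb4 held 1.02 to 1.29 UMIs, and Lcn2, Lrg1 and Ackr1 had at most 9 such cells in a library. No level was therefore read from thinned cells for these 6 genes.

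Thinned cells carrying several of the genes together were rarer in the antibody libraries. Vwf is among the genes counted, so this is not separate from the Vwf shares above. At 1000 UMIs, cells with at least 2 of the 7 genes made up 5.53% (29 cells), 4.91% (30 cells), 2.66% (63 cells) and 2.60% (81 cells) of endothelial-like cells. As log2 ratios, these shares differed by −0.17 (−0.96 to 0.62) in the stroke comparison. The ratio to stroke isotype was −0.88 (−1.53 to −0.20) under anti-VCAM1 and −0.91 (−1.54 to −0.26) under anti-VLA4. Without thinning, the share was 22.9%, 22.6%, 20.8% and 22.3%, nearly level, whereas cells with at least 4 of the genes were at 3.41%, 2.55%, 1.29% and 1.02%. With Vwf not counted, thinned cells with at least 2 of the other 6 genes were 2.86% (15 cells), 1.64% (10 cells), 0.930% (22 cells) and 0.740% (23 cells). The intervals of stroke isotype and both antibody libraries then overlapped.

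Over all libraries the genes met in the same cells. Of the 29 endothelial-like cells with Lrg1, 86.2% also had Vwf, 72.4% Slc38a5, 48.3% Nr2f2 and 34.5% Lcn2, where cells without Lrg1 had these in 40.1%, 16.7%, 10.0% and 0.780%. All 11 cells with Ackr1 had Vwf, and 8 of them had Lrg1. Ephb4 was the most evenly spread, with Vwf in 46.7% of the cells that held it and in 38.5% of those that did not. Deeper cells hold more of every gene, so these shares describe the cells and were not corrected for depth.

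Clustering endothelial-like cells alone, without the 7 genes, gave 7 sub-clusters, of which a small one of 68 cells met 7 of the 10 other venous markers listed (among them Il1r1, Tmem252, Ctsc, Tgm2, Nrp2 and Icam1) and is called venous-like. Of the markers not met, Csrp2 was lower inside than outside (258 against 367 CPM), Selp had 0 UMIs and Aplnr had 6 inside. The venous-like sub-cluster held 21, 14, 16 and 17 cells, or 3.98% (2.48 to 6.02), 2.23% (1.22 to 3.71), 0.668% (0.382 to 1.08) and 0.540% (0.315 to 0.864) of endothelial-like cells. The number of venous-like cells thus lay between 14 and 21 in every library, while the endothelial-like pools of the antibody libraries were several times larger. Stroke isotype over sham gave a log2 ratio of shares of −0.84 (−1.92 to 0.21). Over stroke isotype, anti-VCAM1 was at −1.74 (−2.87 to −0.59) and anti-VLA4 at −2.05 (−3.15 to −0.91), and the 2 antibodies differed by −0.31 (−1.38 to 0.77).

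**Figure D2:**
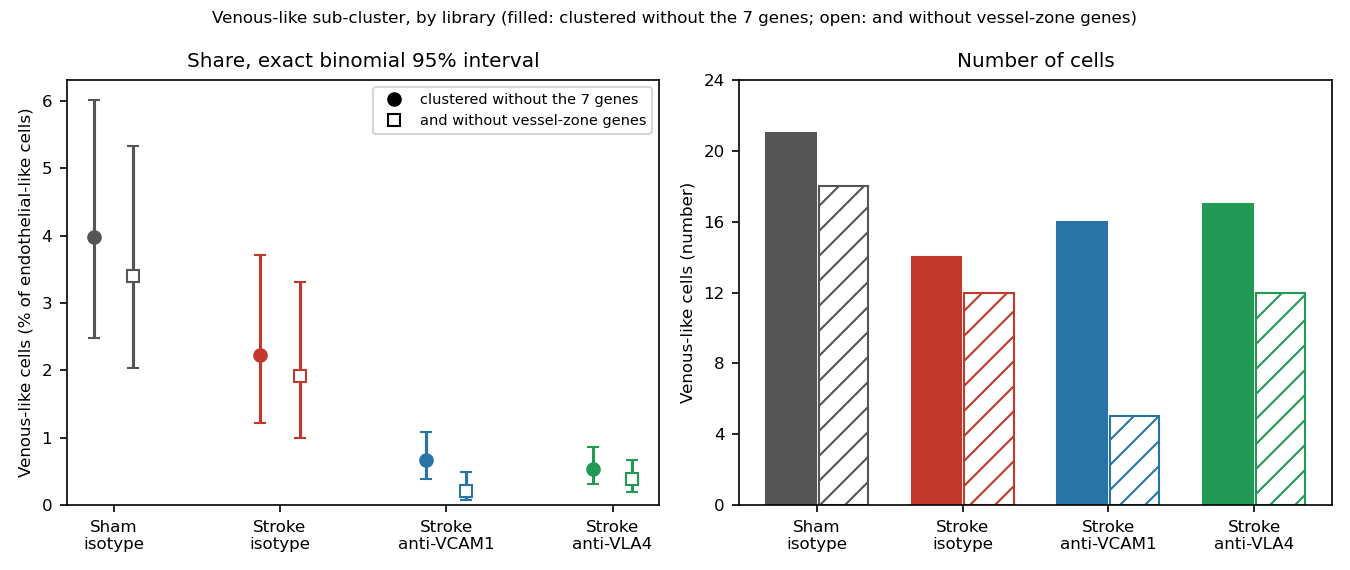
Venous-like cells in each library, as a share of endothelial-like cells with exact binomial 95% intervals (left) and as a number of cells (right). Filled symbols and bars are from clustering without the 7 genes, open ones from clustering that also left out the vessel-zone lists and the leading genes of the sub-cluster. In the filled series the share is 3.98% in sham isotype and 0.540% in anti-VLA4, and the number lies between 14 and 21 in every library.

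As a share of all kept cells, venous-like cells were 1.39% (0.859 to 2.11), 0.494% (0.271 to 0.828), 0.343% (0.196 to 0.557) and 0.274% (0.160 to 0.438), and the intervals of stroke isotype and both antibody libraries overlapped. With the sub-clusters low in Malat1 or with pericyte markers left out of the denominator, they were 4.17%, 2.56%, 1.02% and 0.851%, and per 100 arterial-like cells there were 23.6, 13.5, 3.97 and 3.10. The last values depend on the clustering: arterial-like cells numbered 89, 104, 403 and 549 here, but 26, 46, 251 and 363 at resolution 1. Some of the genes that define this sub-cluster differed between libraries, so the cells were also clustered without 93 vessel-zone and leading genes. Then 18, 12, 5 and 12 cells remained, 3.41%, 1.91%, 0.209% and 0.381%, and the anti-VLA4 library was no longer the lowest. The sort and the pooling of mice could set such shares, and this cannot be told apart from the treatment.

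Within the venous-like cells each of the 7 genes was above its level in the other endothelial-like cells of the same library, although the intervals overlapped for Ephb4 and Lcn2 in stroke isotype and for Ackr1, with 1 UMI, in anti-VLA4. Vwf was at 1748 CPM (1491 to 2036), 1264 (1004 to 1571), 587 (457 to 743) and 1360.2 (1162 to 1583), against 176, 195, 143 and 151 in the other endothelial-like cells. Every venous-like cell of the isotype libraries had Vwf, as did 15 of 16 and 15 of 17 in the antibody libraries. Vwf was lowest in the anti-VCAM1 library, a log2 ratio of −1.11 (−1.59 to −0.63) to stroke isotype, while anti-VLA4 was at 0.10 (−0.29 to 0.51). In the anti-VCAM1 library the venous-like cells also had 408 CPM of summed pericyte markers, where the other 3 libraries had 10.6 to 32.6, and the part of this in the Vwf value was not tested.

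Slc38a5 in venous-like cells was at 529.6, 390.2, 502 and 521 CPM, against 53.7, 67.4, 60.9 and 46.2 outside, and Nr2f2 was at 413, 359, 298 and 375 CPM, against 21.7, 22.5, 26.2 and 27.0. Neither gene was lower in the venous-like cells of the antibody libraries beyond counting error: the log2 ratios to stroke isotype were 0.36 (−0.33 to 1.10) and 0.42 (−0.27 to 1.15) for Slc38a5, and −0.27 (−1.07 to 0.56) and 0.062 (−0.69 to 0.85) for Nr2f2, under anti-VCAM1 and anti-VLA4. These intervals are wide, so similar levels were not shown. Ephb4 was the least restricted, at 222, 125, 128 and 155 CPM inside and 63.3, 54.2, 51.4 and 48.7 outside.

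In the sham library the inducible genes lay almost wholly in these few cells. There, 32 of 33 Lcn2 UMIs and all 28 Lrg1 UMIs lay in venous-like cells, in 9 cells each. In stroke isotype the venous-like cells held 2 of 10 Lcn2 UMIs and 7 of 15 Lrg1 UMIs. In the anti-VCAM1 library they held 28 of 47 and 2 of 14, and in the anti-VLA4 library 12 of 38 and 9 of 9. Lcn2 in venous-like cells was thus at 339 CPM (232 to 479), 31.2 (3.78 to 113), 238 (158 to 344) and 97.7 (50.5 to 171), and Lrg1 at 297 (197 to 429), 109 (43.9 to 225), 17.0 (2.06 to 61.5) and 73.3 (33.5 to 139). In the anti-VCAM1 library 24 of the 28 Lcn2 UMIs came from 1 cell, so that level rests on it and its interval does not cover this. Among endothelial-like cells, Ackr1 was outside the venous-like cells only in 2 UMIs, both in the anti-VCAM1 library. Of the 9 monocyte and neutrophil markers, S100a8 and S100a9 had UMIs in the venous-like cells, together 1 in sham (10.6 CPM) and 2 in stroke isotype (31.2 CPM). The antibody libraries had 0, and markers such as Retnlg, Csf3r and Cxcr2 had none in any library. None of the 8 T cell markers had UMIs there. The part of neutrophil RNA in the Lcn2 and Lrg1 values of the venous-like cells was not tested.

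**Figure D3:**
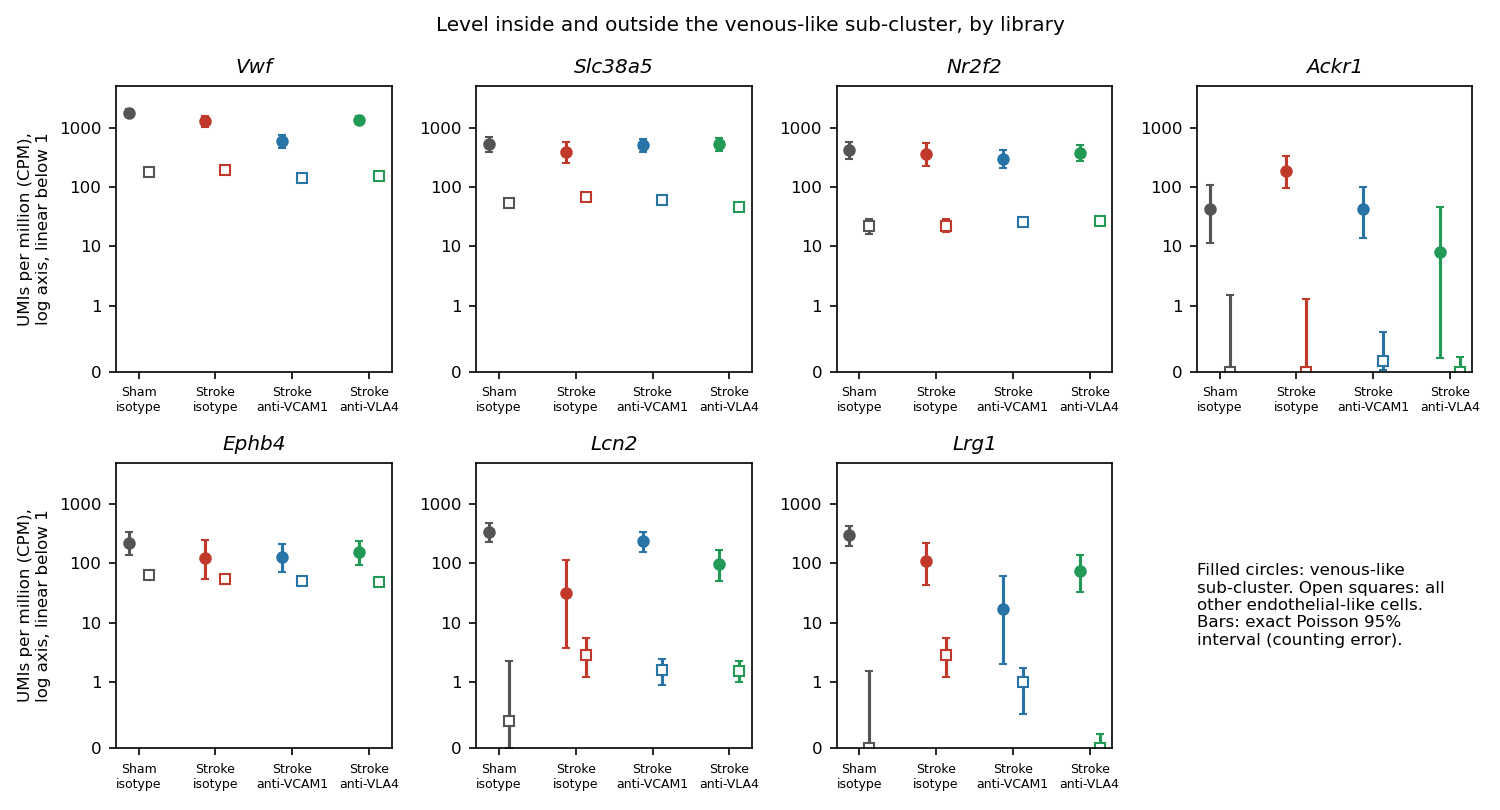
Level in CPM of each gene inside the venous-like sub-cluster (filled circles) and in all other endothelial-like cells (open squares) of each library, on a log axis that is linear below 1, with exact Poisson 95% intervals. Inside levels of Slc38a5, Nr2f2 and Ephb4 overlap between libraries, Vwf is lowest at 587 CPM in anti-VCAM1, and Lcn2 is at 31.2 CPM in stroke isotype.

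Outside the venous-like cells, Vwf was still lower in both antibody libraries than in stroke isotype, by a log2 ratio of −0.45 (−0.59 to −0.31) under anti-VCAM1 and −0.37 (−0.51 to −0.24) under anti-VLA4, and Slc38a5 was lower under anti-VLA4 (−0.53, −0.77 to −0.31). The venous-like cells held 28.1%, 12.9%, 3.86% and 6.15% of all endothelial Vwf UMIs. When the venous-like share of UMIs in each antibody library was set to that of stroke isotype, keeping the levels inside and outside as measured, Vwf stayed at −0.52 under anti-VCAM1 and −0.30 under anti-VLA4. Holding the shares of all 7 sub-clusters instead gave −0.41 and −0.18. Slc38a5 under anti-VLA4 was at −0.39 and −0.32 in the same order. By this arithmetic, for Vwf and Slc38a5 part of the difference went with the share of venous-like cells. The rest went with the levels inside and outside these cells and with the mix of the other sub-clusters. Inside the venous-like cells, Vwf was at −1.11 under anti-VCAM1 and 0.105 under anti-VLA4, and Slc38a5 at 0.42 under anti-VLA4.

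Lrg1 with the venous-like share held stayed at −1.94 under anti-VCAM1 and moved from −3.31 to −1.68 under anti-VLA4. In the stroke comparison, holding the share took Vwf from −0.10, itself within counting error, to near 0 (0.00095). That value joins opposite levels: Vwf was at −0.47 (−0.87 to −0.08) inside the venous-like cells and at 0.15 (−0.04 to 0.34) outside them. Holding the share took Lrg1 from −1.10 to −0.71, while Lcn2 was still at −1.75, since its level within the venous-like cells differed.

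**Figure D4:**
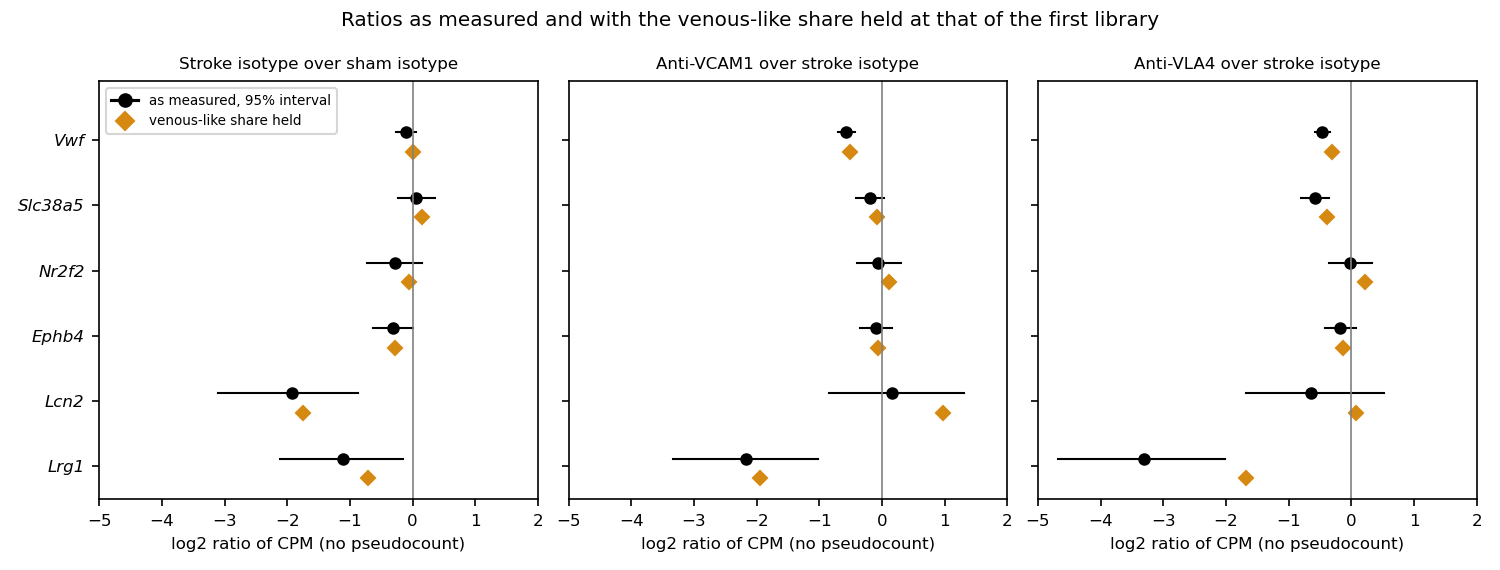
Log2 ratio of CPM without a pseudocount for 6 genes in 3 comparisons: as measured in all endothelial-like cells (circles, exact 95% interval) and with the venous-like share of UMIs held at that of the first library (diamonds). Vwf under anti-VCAM1 moves from −0.57 to −0.52, and Lrg1 under anti-VLA4 from −3.31 to −1.68.

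Across the remaining sub-clusters the genes had different footprints. In the arterial-like sub-cluster of 1145 cells, Slc38a5 was at 4.8 to 11 CPM, Nr2f2 at 3.9 to 12 CPM and Ephb4 at 47 to 73 CPM. Vwf was at 146, 207, 140 and 139 CPM there, and at 152, 185, 135 and 154 CPM in the largest sub-cluster, of 2545 cells. In both, stroke isotype was the highest, and the sham interval overlapped those of all other libraries. In the sub-cluster low in Malat1, of 1740 cells, Vwf was at 243, 177, 128 and 142 CPM, with both isotype libraries the higher. Vwf in an unnamed sub-cluster of 826 cells was at 219 to 230 CPM in all 4 libraries. That sub-cluster held 172, 154, 235 and 265 cells.

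Other cell classes held part of the signal for 3 genes. Nr2f2 was higher in pericyte-like cells, at 933, 337, 462 and 408 CPM from 10, 14, 57 and 92 cells, which held 32.3% of all its UMIs. Lcn2 was at 1415, 1478, 3315 and 1949 CPM in monocyte or neutrophil-like cells, which numbered 18, 21, 24 and 7 and held 87.2% of all Lcn2 UMIs. They also held 37.8% of Lrg1 UMIs. Since the endothelial-like cells of stroke isotype had 26.5 CPM of summed monocyte and neutrophil markers, against 7.61 in sham and 2.23 to 3.97 in the antibody libraries, the part of such RNA in the Lcn2 and Lrg1 values outside the venous-like cells was not tested. Vwf, Slc38a5 and Ephb4 had 95.7%, 96.8% and 96.2% of their UMIs in endothelial-like cells.

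**Figure D5:**
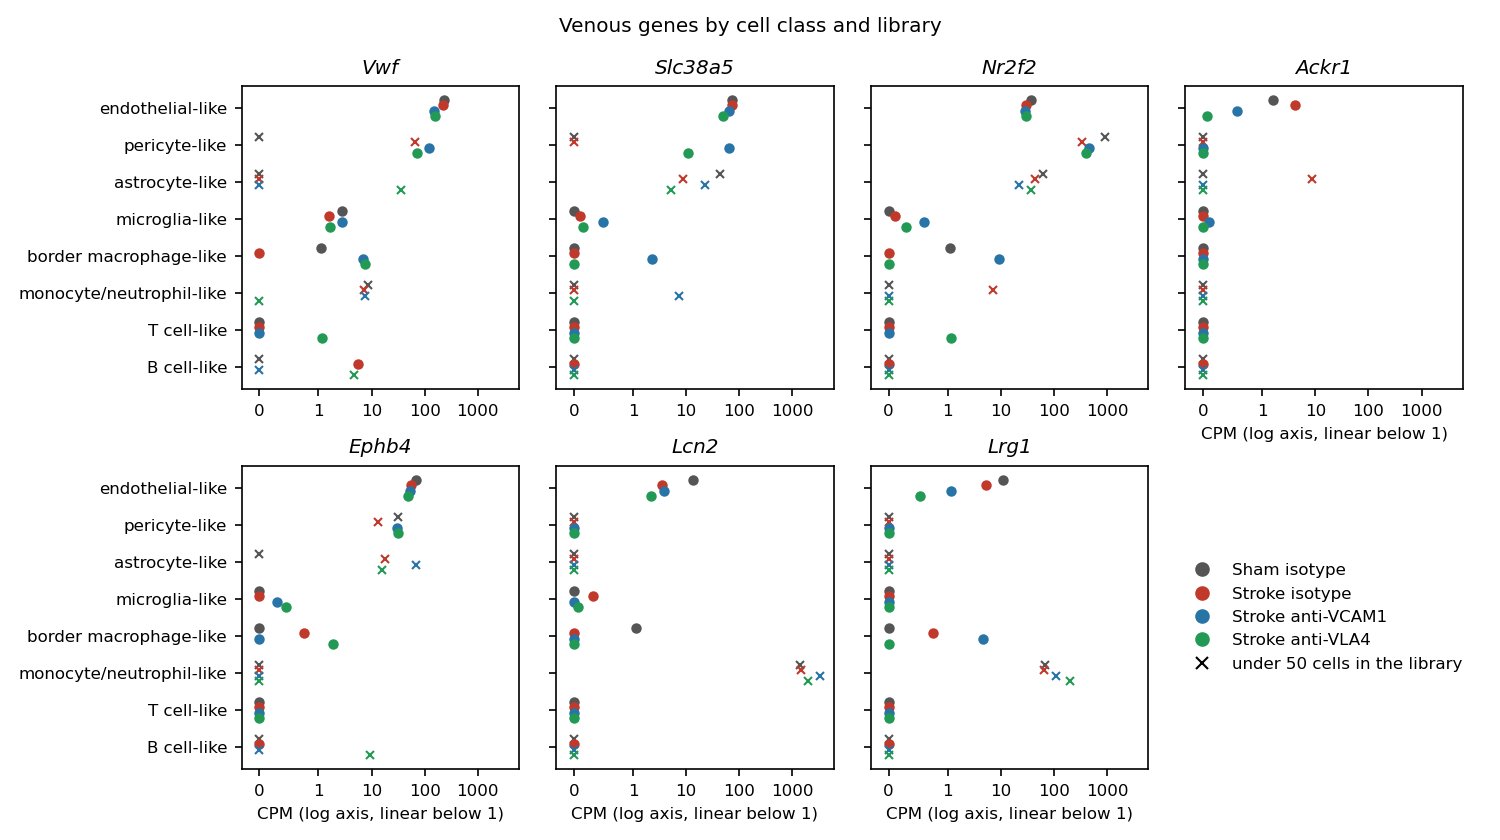
Level in CPM of the 7 genes in 8 cell classes, 1 point per library, on a log axis that is linear below 1. Crosses mark classes with fewer than 50 cells in that library. Lcn2 reaches 1415 to 3315 CPM in monocyte or neutrophil-like cells, and Nr2f2 337 to 933 CPM in pericyte-like cells.

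The genes most like each one were ranked by their enrichment in cells with the gene over cells without it, as the mean log2 ratio over the 4 libraries at 1000 UMIs per cell, among 9523 genes. For Vwf these were Il1r1 (2.04), Gm5127 (1.69), Mgp (1.59) and Ptgs2 (1.51), from 955 cells with Vwf. For Slc38a5 they included Wnt5a (1.65), Vcam1 (1.41) and Tet1 (1.32), and for Nr2f2 Vcam1 (2.62), Il1r1 (2.60) and Hs3st1 (1.75), so Vcam1 stood in both lists and Il1r1 in those of Vwf and Nr2f2. Ephb4 was led by 1500004A13Rik (1.29) and Setbp1 (1.28). For Lcn2 and Lrg1 the ranking rested on 24 and 15 cells, led by Nckap5 (3.002) and Tmem176b (3.26).

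The shares of all measured genes past 1.5 times, given above, are the background for the lists below, and no difference between lists was tested. Of 12 other venous genes listed, 9 were measured. In the stroke comparison 1 of them was past 1.5 times lower, the adhesion molecule Vcam1, at 85.3 CPM in sham and 41.8 CPM in stroke isotype (log2 ratio −1.01, −1.36 to −0.70). Under anti-VCAM1 there were 4, and the median of the list was −0.58, where 8.69% of all genes were lower with a median of −0.077. Among them were the interleukin-1 receptor Il1r1 (77.0 to 24.9 CPM, −1.59), the semaphorin receptor Nrp2 (−0.71) and Vcam1 itself (−0.65). Tmem252 (0.48, 0.34 to 0.63) and Csrp2 (0.38, 0.27 to 0.49) of the same list went the other way, short of 1.5 times. Csrp2 was lower in the venous-like cells than in the other endothelial-like cells. Under anti-VLA4, 5 of the list were past 1.5 times lower, with a median of −0.63, beside 9.72% and −0.081 for all genes. Among them were Il1r1 (24.97 CPM, −1.59), Vcam1 (19.3 CPM, −1.08), Nrp2 (−0.68) and Icam1 (−0.63). None of the 9 was past 1.5 times higher in any comparison. These markers partly define the venous-like sub-cluster and were in its clustering, and the list was drawn up with results of these data known.

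Of 15 arterial genes listed, 14 were measured. In stroke 2 were lower, Mgp (−0.71) and Fbln5 (−0.74), with none higher and a median of −0.11, where 4.48% of all genes were lower and the median was −0.021. Under anti-VCAM1 1 was higher, Gkn3 (0.65), and 1 lower, Fbln5 (−0.82). Under anti-VLA4 3 were higher, Gkn3 (0.90), Mgp (0.90) and the Notch target Hey1 (0.65), and none lower, where 3.74% of all genes were higher. The medians of the list were 0.19 and 0.23 under the antibodies. All 11 capillary genes were measured and none was past 1.5 times in any of the 4 comparisons. The largest among them was the transferrin receptor Tfrc, at −0.43 under anti-VCAM1 and −0.58 under anti-VLA4.

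Of 12 acute-phase signalling genes, 9 were measured. In stroke 1 was lower, Socs3 (−0.73), an inhibitor of cytokine signalling. Under both antibodies the transcription factor Cebpd was higher, at 0.84 and 0.76, and under anti-VCAM1 Nfkbiz was lower (−0.77). The list's medians were −0.16, −0.14 and −0.19 in the stroke, anti-VCAM1 and anti-VLA4 comparisons, beside −0.021, −0.077 and −0.081 for all genes. Of the genes whose products bind those of the set, 7 to 9 of 12 were measured, and the receptor Tgfbr1, a partner in LRG1 signalling, was lower under both antibodies (−0.79 and −0.72). Nr2f1, a relative of Nr2f2, was past 1.5 times higher under anti-VLA4 with 1 CPM added, from 25 UMIs against 0 in stroke isotype. Of the 10 genes of Weibel-Palade granules, the store of von Willebrand factor, 9 were measured and none was past 1.5 times under either antibody. In stroke 2 were higher, Angpt2 (0.76) and Cd63 (1.06), and 2 lower, Rab27a (−0.60) and Vps18 (−0.93), where 4.91% and 4.48% of all genes were higher and lower. Genes that dissociation induces also differed: 4 of 10 were lower in stroke isotype than in sham, among them Fos (−0.68), Dusp1 (−0.83) and Zfp36 (−0.79), with a median of −0.42 beside −0.021 for all genes. Under the antibodies this list was mixed, with medians of 0.14 and 0.12: Fos was lower (−0.78 and −0.72), and Egr1 under anti-VCAM1 (−0.59), while Hspa1a was at 0.51 and 0.76 and Dusp1 at 0.40 and 0.52. The part of tissue handling in the Lcn2 and Lrg1 values of the sham library was not tested.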

How the data were processed

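The deposited files hold raw UMI counts per gene and cell barcode, which per the file headers the authors made using Cell Ranger 7.0.1. The submitters' processing notes list Cell Ranger 6.0.0, Seurat 4.3.0.1 and the builds mm10 and GRCh38, with no role given. No normalization had been applied to the counts. Barcodes were kept at 500 or more UMIs, 200 or more genes and at most 10% mitochondrial UMIs, and doublets marked per library with Scrublet in scanpy 1.11.5 (9, 24, 58 and 124 cells) were left out. Total counts per library were 10008987, 17130182, 25099141 and 34721356. Cells were clustered on 2000 variable genes (30 components, 15 neighbours, Leiden resolution 1), without the 7 genes and the listed genes, into 23 clusters. Clusters were named from listed markers, 7 of them endothelial-like. Endothelial-like cells were clustered again without the 7 genes at resolution 0.5. UMIs were summed per library and class, since cells are not replicates. Ratios carry exact conditional binomial intervals, levels exact Poisson and shares Clopper-Pearson intervals (scipy 1.17.1). A difference of 1.5 times with 1 CPM added and at least 20 UMIs over both libraries was called, as a description. Interval and call procedures were tested on simulated Poisson counts, with folds set only on genes with at least 200 expected UMIs. The simulation therefore did not cover UMIs clumped in few cells, as for Lcn2 and Lrg1.

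The 7 genes and the gene lists were chosen with earlier results of these data known. Named were the 7 genes, at most 4 genes of each list by size of the ratio among those with at least 200 UMIs, and the genes most like each of the 7. Fbln5, Icam1, Nfkbiz, Nr2f1, Socs3, Angpt2, Cd63, Rab27a and Vps18 fell outside that rule in at least 1 comparison and were named after their values were seen, to complete counts of 5 or fewer. Tmem252 and Csrp2 were also named outside it, as genes of their list that were higher under anti-VCAM1. Selp and Aplnr were named as venous markers that the venous-like sub-cluster did not meet. Alternatives covered cell filters, doublets, clustering, Malat1, pericyte markers, thinning, pseudocount, scaling and gene span. A gene of the lists is not reported here.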

Additional observations from a re-analysis of the deposited data

How the results depend on the processing

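No paired analysis was possible because each group was 1 library. For the medians, the shares of cells with several of the genes and the venous-like shares, 119 alternative values lay within the counting interval of the main value and 9 did not. No main value that was itself past 1.5 times changed its sign, but main values short of that did, as given below. For single genes, 330 alternative values lay within the counting interval and 23 did not. Leaving out the venous-like cells changed the sign of the median for stroke, from −0.29 to 0.099 over 4 genes. Thinning to 1000 UMIs took the median for anti-VCAM1 to −0.59, and with no minimum of UMIs the median between the antibodies was −0.39. Without thinning, the share of cells with at least 2 of the genes differed by only −0.12 for anti-VCAM1 and −0.020 for anti-VLA4. With at least 3 of the genes it differed by −1.48 for stroke and −1.86 for anti-VLA4. Clustering without vessel-zone genes, added after seeing the data, took the venous-like share to −3.19 for anti-VCAM1 and, with a change of sign, from −0.31 to 0.87 between the antibodies. Lrg1 under anti-VCAM1 was at −0.89 with marked doublets kept and at −0.45 with 10 CPM added, and under anti-VLA4 at −0.53 with 10 CPM added; that setting ended both calls. Lrg1 and Lcn2 are limited by their few UMIs.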
